A study of Mus musculus with 2 samples.

Results

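The 10 genes described here encode a glucose transporter and 9 of the enzymes that carry glucose to lactate: Slc2a1, Hk2, Gpi1, Pfkl, Aldoa, Tpi1, Pgk1, Pgam1, Eno1 and Ldha. They were taken by symbol from the 31053 features of the count tables, and all 10 were present, on 11 gene identifiers because Aldoa is listed under 2 (the second holds almost no UMIs, and both were summed). The data are 2 droplet single-cell RNA libraries from bone marrow of wild-type C57BL/6J mice aged 6 to 8 weeks, flushed from femora and tibiae with red cells lysed: 1 from naive mice and 1 from mice challenged with Listeria monocytogenes 6 weeks earlier. Both libraries are labelled as haematopoietic stem cells (HSCs). The number of mice pooled and the sort used are not given in the sources used here, and the deposited files' own names set the libraries apart by genotype where the labels give wild type for both. The labels were followed, and a difference in genotype cannot be told apart from the challenge.

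Glycolysis splits glucose into pyruvate in the cytosol, and lactate dehydrogenase turns pyruvate into lactate while restoring the NAD+ the pathway needs. Several steps are shared by paralogous enzymes (isozymes) that differ in tissue use and kinetics. Quiescent HSCs in hypoxic marrow are known for leaning on glycolysis, the hypoxia-inducible factors HIF are known activators of many of these genes, and neutrophils are known as strongly glycolytic cells.

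Cells with at least 2500 unique molecular identifiers (UMIs, 1 per captured RNA molecule), at least 500 genes and at most 10% mitochondrial UMIs were kept: 6375 naive and 4839 Listeria cells, with median depths of 6972 and 7239 UMIs, and 14 cell barcodes in both libraries. Cells were sorted into gates by marker genes. The HSC gate (at least 3 of 12 HSC genes, and more of them than of 8 multipotent progenitor genes) held 1412 naive and 1374 Listeria cells, of which 323 and 374 had exactly 3. Its marker Hlf was detected in 86.1% and 83.3% of its cells, against 10.7% and 4.01% of B-lineage cells. The multipotent progenitor (MPP) gate held 1966 and 1666 cells, and 746 and 796 cells of neither were left ungated. The libraries are not pure HSCs: 1399 naive and 399 Listeria cells passed the B-lineage gate, 133 and 118 the neutrophil gate and 125 and 159 the megakaryocyte gate, with smaller plasma cell, T and NK, erythroid, granule-enzyme progenitor, lymphoid-primed and dendritic gates. Levels below are UMIs of a gene per 1000000 UMIs of the gate (CPM). With 1 library per condition there is no test between conditions, and every interval is a 95% interval for counting error only.

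Promoter stretches of 4 members are shown because these genes differed most plainly between dividing and resting cells, in both directions. Each is the 250 bases before a RefSeq transcript start in GRCm38.p6, written 5′ to 3′ on the gene's strand, and none overlaps an annotated exon of the 10 genes. Capitals mark ACGTG or GCGTG, the core that HIF binds, on either strand (CACGT or CACGC when read on the other), so that CACGTG holds a core on each.
Ldha, chr7:46845554-46845803, plus strand, inside an intron of the longest annotated form: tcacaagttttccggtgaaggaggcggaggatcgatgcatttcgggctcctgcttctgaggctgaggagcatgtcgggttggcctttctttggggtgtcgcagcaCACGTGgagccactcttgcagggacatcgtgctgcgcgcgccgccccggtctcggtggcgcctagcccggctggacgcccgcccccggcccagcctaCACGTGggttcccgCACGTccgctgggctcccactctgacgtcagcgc
Pgk1, chrX:106186850-106187099, plus strand, ending at the base before the annotated gene: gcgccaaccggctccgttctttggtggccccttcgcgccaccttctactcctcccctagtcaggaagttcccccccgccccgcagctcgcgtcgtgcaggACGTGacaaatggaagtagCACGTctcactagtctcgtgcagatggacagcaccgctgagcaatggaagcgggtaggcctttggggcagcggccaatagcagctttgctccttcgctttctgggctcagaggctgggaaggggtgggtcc
Hk2, chr6:82774455-82774704, minus strand, ending at the base before the annotated gene: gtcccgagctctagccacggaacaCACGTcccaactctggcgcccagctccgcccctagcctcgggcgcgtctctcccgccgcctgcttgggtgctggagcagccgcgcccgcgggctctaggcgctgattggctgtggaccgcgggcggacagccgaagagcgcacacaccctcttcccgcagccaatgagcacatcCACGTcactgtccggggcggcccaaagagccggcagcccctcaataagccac
Aldoa, chr7:126799255-126799504, minus strand, inside an intron of the longest annotated form: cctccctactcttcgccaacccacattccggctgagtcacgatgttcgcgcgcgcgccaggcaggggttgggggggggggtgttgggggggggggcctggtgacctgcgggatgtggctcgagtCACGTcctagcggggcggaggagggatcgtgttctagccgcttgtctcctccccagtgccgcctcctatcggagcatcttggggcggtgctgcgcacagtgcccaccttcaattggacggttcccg
The Ldha stretch held 5 cores, among them 2 CACGTG palindromes, Pgk1 and Hk2 held 2 each and Aldoa held 1. All 10 members had a RefSeq promoter, 15 in total, and 8 of the 10 genes had a core in at least 1 of them, beside 41.5% of all 27025 genes in the table. CACGTG was found in 1 member, Ldha, and in 6.86% of all genes. No match was found in the windows of Gpi1 and Tpi1. A match is a description of these letters and not evidence of binding.

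In the HSC gate of both libraries Gpi1, Ldha and Aldoa were the highest of the 10 genes, and Slc2a1, the transporter, was the lowest. A UMI counts 1 captured 3′ end whatever the transcript's length, so CPM was not divided by length, and capture efficiency can still differ between genes. Slc2a1 (chr4:119108711-119137983, plus strand), the transporter GLUT1, stood at 28.5 CPM in naive (25.3 to 31.9) and 26.2 in Listeria HSC-gated cells. Hk2 (chr6:82725025-82774454, minus strand), which phosphorylates glucose and thereby traps it, stood at 48.7 (44.5 to 53.2) and 57.8 (53.2 to 62.6). Gpi1 (chr7:34201330-34230336, minus strand), the isomerase that makes fructose 6-phosphate, was at 211 and 225. These put Hk2 several times below Gpi1 in both libraries. That compares the genes and not their steps, because Hk1 gave most hexokinase UMIs of the HSC gate, as described below.

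Pfkl (chr10:77986947-78010083, minus strand), the liver form of the committed and most regulated step, stood at 54.8 CPM in naive and 46.9 in Listeria HSC-gated cells. Aldoa (chr7:126795234-126800751, minus strand), the aldolase that splits the hexose, was at 157 and 188, and Tpi1 (chr6:124810586-124814296, minus strand), which interconverts the resulting trioses, at 127 and 130. Hk2 and Pfkl, the most regulated enzymes of the set, were thus low beside Gpi1, Aldoa and Tpi1. This holds for these genes and not for their steps, to which Hk1 and Pfkp added many UMIs, as described below. Pgk1 (chrX:106187100-106203699, plus strand), the first ATP-making step, was at 116 and 125. Pgam1 (chr19:41911923-41918660, plus strand), a phosphoglycerate mutase, was at 54.9 and 61.8, and Eno1 (chr4:150236721-150248879, plus strand), the enolase, at 58.7 and 76.8. Eno1 is uncertain, because 83.8% of the 50-base windows in the last 400 bases of its transcripts also occur in Eno1b or in pseudogenes. Ldha (chr7:46841475-46855627, plus strand), the subunit that favours lactate formation, was at 216 and 249. Summed over the 10 genes, the HSC gate held 1072 CPM in naive and 1185 in Listeria cells, which is 7.79 and 8.76 UMIs per cell.

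Neutrophil-gated cells held the highest summed level of the 10 genes, 2840 CPM for naive and 3028 for Listeria cells, above all other gates with at least 25 cells. Plasma cells held the lowest, 459.5 and 521, on totals that were largely antibody transcripts. Between those ends the order of the naive gates was dendritic (839), lymphoid-primed (862), MPP, HSC (1072), ungated, B-lineage (1146), T and NK (1246), megakaryocyte (1434), erythroid (1473) and granule-enzyme progenitor (1493). Neighbours within the set of MPP, HSC and ungated cells, within the pair of dendritic and lymphoid-primed cells and within the last 3 had overlapping intervals. The B-lineage and T and NK gates each stood apart from both neighbours in the naive library. The B-lineage place depended on the total used. With mitochondrial, ribosomal, haemoglobin and antibody genes removed from it, naive B-lineage cells (1617) came below MPP (1628), HSC (1658) and ungated cells (1678). T and NK cells (1798) stayed above these and below megakaryocyte-gated cells (2147).

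**Figure D1:**
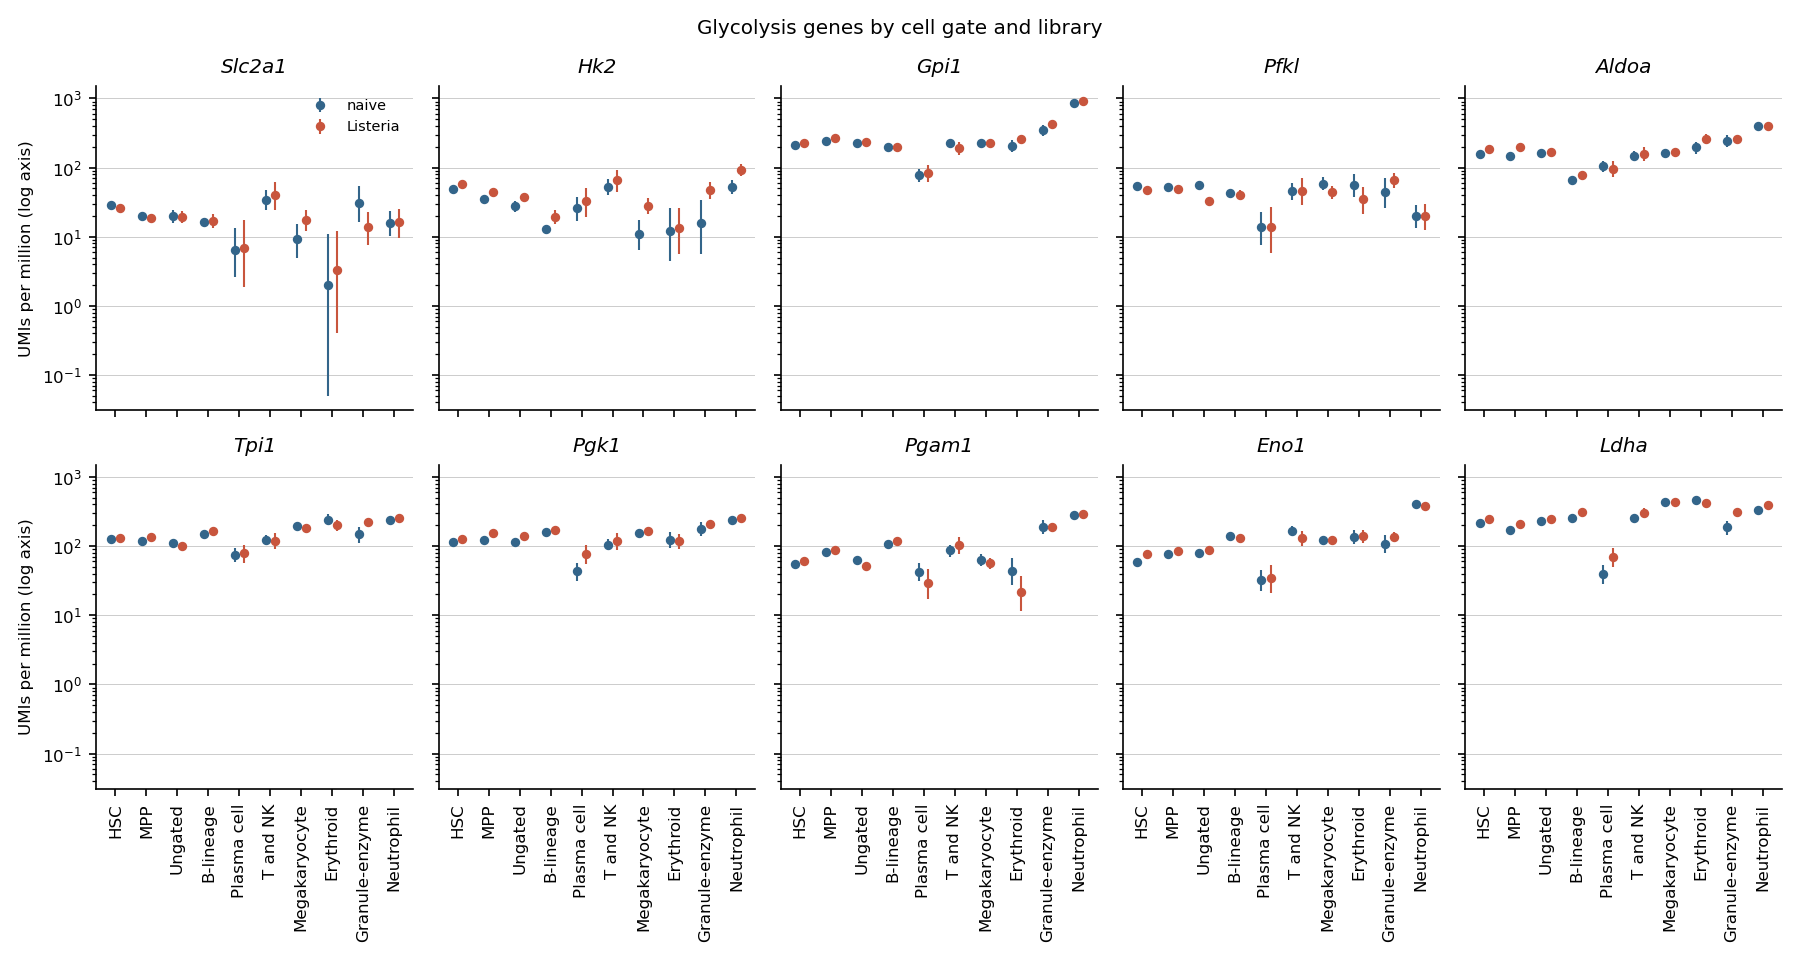
Level of each of the 10 genes by marker gate, in CPM on a log axis, with blue points for the naive and red points for the Listeria library and bars for 95% counting intervals. In the neutrophil gate Gpi1 reaches 847 and 925, while Pfkl stands at 20.1 and 19.7 there, below its HSC levels.

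The neutrophil excess was uneven along the pathway. Gpi1 stood at 847 CPM in naive neutrophil-gated cells (800 to 896) and 925 in Listeria ones (870 to 984), which is 2.01 and 2.04 log2 units over the HSC gate. Eno1 was at 408 and 380 (2.80 and 2.31 log2 units over HSC) and Pgam1 at 284.5 and 296 (2.37 and 2.26). Aldoa was at 400.1 and 393, again well over the HSC gate. Pgk1 at 239 and 256, Tpi1 at 239.5 and 258 and Ldha at 334 and 393 were between 0.63 and 1.04 log2 units above HSC-gated cells. Pfkl went the other way, at 20.1 and 19.7 CPM (log2 ratios of -1.45 and -1.251 to the HSC gate), and Slc2a1 was at 15.9 and 16.1 (-0.84 and -0.70).

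A member was counted as higher or lower in a comparison when it differed by more than 0.32 log2 units and reached 10 CPM in at least 1 of the groups. By that limit 7 members were higher and 2 lower in naive neutrophil-gated over HSC-gated cells, where 27.2% of all measured genes were higher and 53.8% lower. In the Listeria library 8 were higher and 2 lower, beside 25.9% and 54.4% of all genes. The added member there was Hk2, at 91.3 CPM over 57.8, whereas its naive levels were 51.9 and 48.7. These counts are on full totals. With mitochondrial, ribosomal, haemoglobin and antibody genes removed from the total, the neutrophil excess was smaller. The summed level was then 3410 against 1658 in naive and 3647 against 1787 in Listeria cells. Naive Ldha was at 401 against 335. Hk2 was below the HSC gate in naive cells (62.3 against 75.3) and above it in Listeria ones (110 against 87.1). Of 8 listed pentose phosphate genes, the branch that feeds NADPH to the oxidative burst, 7 were higher in naive and 8 in Listeria neutrophil-gated cells and none lower, with a median of 2.20 and 2.28 log2 units. Tkt, a transketolase of that branch, stood at 1137 against 229 CPM in the naive library, and Pgd, one of its dehydrogenases, at 336 against 35.8. Gapdh, the glycolytic enzyme between Tpi1 and Pgk1, was at 1789 against 511, which leaned the same way. Its step is missing from the 10 genes, as is that of pyruvate kinase (Pkm).

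Within the neutrophil gate Tpi1 varied with division in both libraries. It stood at 64.7 CPM (34.5 to 111) in the 37 resting naive cells, 152 in the 39 intermediate ones and 307 (273 to 345) in the 57 dividing ones. The Listeria cells gave 88.4, 189 and 341. In both libraries the resting and dividing intervals did not overlap. Gpi1 (742 resting and 895 dividing in naive) and Ldha (383 and 318) differed much less. Tpi1 was thus below its HSC level in resting neutrophil-gated cells and above it in dividing ones. These groups are under 50 cells in part, so no ratio was computed. Resting cells were also shallower than dividing ones, with median UMIs of 4357 and 16023 in naive and 5451.5 and 14434 in Listeria cells. Their mitochondrial shares were 0.70% and 2.68% in naive and 0.94% and 2.60% in Listeria cells. The part of such differences in the Tpi1 levels was not tested.

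Antibody transcripts took 50.2% of naive and 52.1% of Listeria plasma cell UMIs, which bears on every level in that gate. All 10 members were under the HSC gate in the naive library, with a median log2 ratio of -1.18, where 81% of all genes were lower, 10.5% higher and the median over all genes was -1.26. With mitochondrial, ribosomal, haemoglobin and antibody genes removed from the total, the summed level was 1347 in plasma and 1658 in HSC-gated naive cells. Naive dendritic (1129) and lymphoid-primed cells (1263) then lay below plasma cells, as did Listeria lymphoid-primed (1514) below Listeria plasma cells (1543). On that reduced total 4 naive members stood above the HSC gate, Aldoa at 304 against 243, Tpi1 at 220.4 against 196, Pgam1 at 124 against 84.8 and Eno1 at 94.1 against 90.7. Hk2 was at 75.3 in both gates, and Ldha was at 116 against 335.

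Ldha led in the megakaryocyte and erythroid gates. It stood at 433 CPM in naive and 435 in Listeria megakaryocyte-gated cells and at 460 and 425 in the 26 and 46 erythroid-gated cells, against 216 and 249 in the HSC gate. Slc2a1, which brings glucose in, and Hk2, which traps it, were low in the same cells. They stood at 9.12 and 11.1 CPM in naive and at 17.3 and 27.9 in Listeria megakaryocyte-gated cells. Slc2a1 was at 1.99 (1 UMI, 0.0504 to 11.1) in the naive erythroid gate. Hk1 gave most hexokinase UMIs of the megakaryocyte gate, as described below. Tpi1, Pgk1, Eno1 and Ldha were higher and Slc2a1 and Hk2 lower in megakaryocyte-gated over HSC-gated cells in both libraries. This is 4 higher and 2 lower beside 40% and 23.5% of all genes in naive, and 32.9% and 25.8% in Listeria cells.

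B-lineage cells held little Aldoa and Hk2 and more of the later enzymes. Aldoa stood at 67.0 CPM in naive and 77.1 in Listeria B-lineage cells, -1.23 and -1.28 log2 units relative to the HSC gate, and Hk2 at 12.9 and 19.5 (-1.92 and -1.57). Eno1 was at 139.6 and 132 (1.2505 and 0.78) and Pgam1 at 108 and 117 (0.98 and 0.92). Over the HSC gate 3 members were higher and 4 lower in naive cells, where 38.1% of all genes were higher and 35.2% lower, and 4 were higher and 3 lower in Listeria cells, beside 33.8% and 38.5%. Those shares are close to the members' own. Of these cells 1142 of 1399 and 345 of 399 were in the dividing state described below.

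Paralogs of the same step shifted between gates, so a member's level is not the level of its reaction. In the HSC gate Ldhb, the subunit that favours pyruvate formation, gave 27.2% (25.7 to 28.8, exact binomial) of naive and 21.3% (19.9 to 22.7) of Listeria lactate dehydrogenase UMIs. The share was 22.4% and 15.6% in the MPP gate and 2.26% and 0.707% in B-lineage cells. Neutrophil-gated cells kept 13.4% and 12.5%. Among HSC-gated cells the share was 30.5% and 30.2% in resting and 19.3% and 16.8% in dividing cells, so it was smaller in dividing cells of both libraries.

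Hexokinase differed by lineage. Hk1, the widely expressed form, gave 73.1% and 73.6% of hexokinase UMIs in HSC-gated cells, with Hk2 at 24.4% and 24.3%. In neutrophil-gated cells Hk3, a form typical of granulocytes and monocytes, gave 48.5% and 44.1%, and Hk2 22.3% in naive and 32.6% in Listeria cells. Hk2 was the larger share in plasma cells, at 71.8% of only 39 UMIs in naive and 65.5% of 29 in Listeria cells. In megakaryocyte-gated cells Hk1 gave 93.8% and 82.2%.

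The transporter and phosphofructokinase families showed the same kind of replacement. Slc2a1 gave 29.2% and 29.6% of the UMIs of Slc2a1 and Slc2a3 in the HSC gate, where GLUT3 (Slc2a3) therefore dominated. In neutrophil-gated cells Slc2a3 gave 91.9% and 92.2%, and in B-lineage cells Slc2a1 reached 53.8% and 64.2%. Pfkl and Pfkp, the platelet form, shared the phosphofructokinase UMIs of the HSC gate, with Pfkl at 45.8% and 39.8% and Pfkp at 42.6% and 49.8%. The muscle form Pfkm was nearly missing from neutrophil-gated cells, with 0 UMIs in naive and 1 in Listeria.

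**Figure D2:**
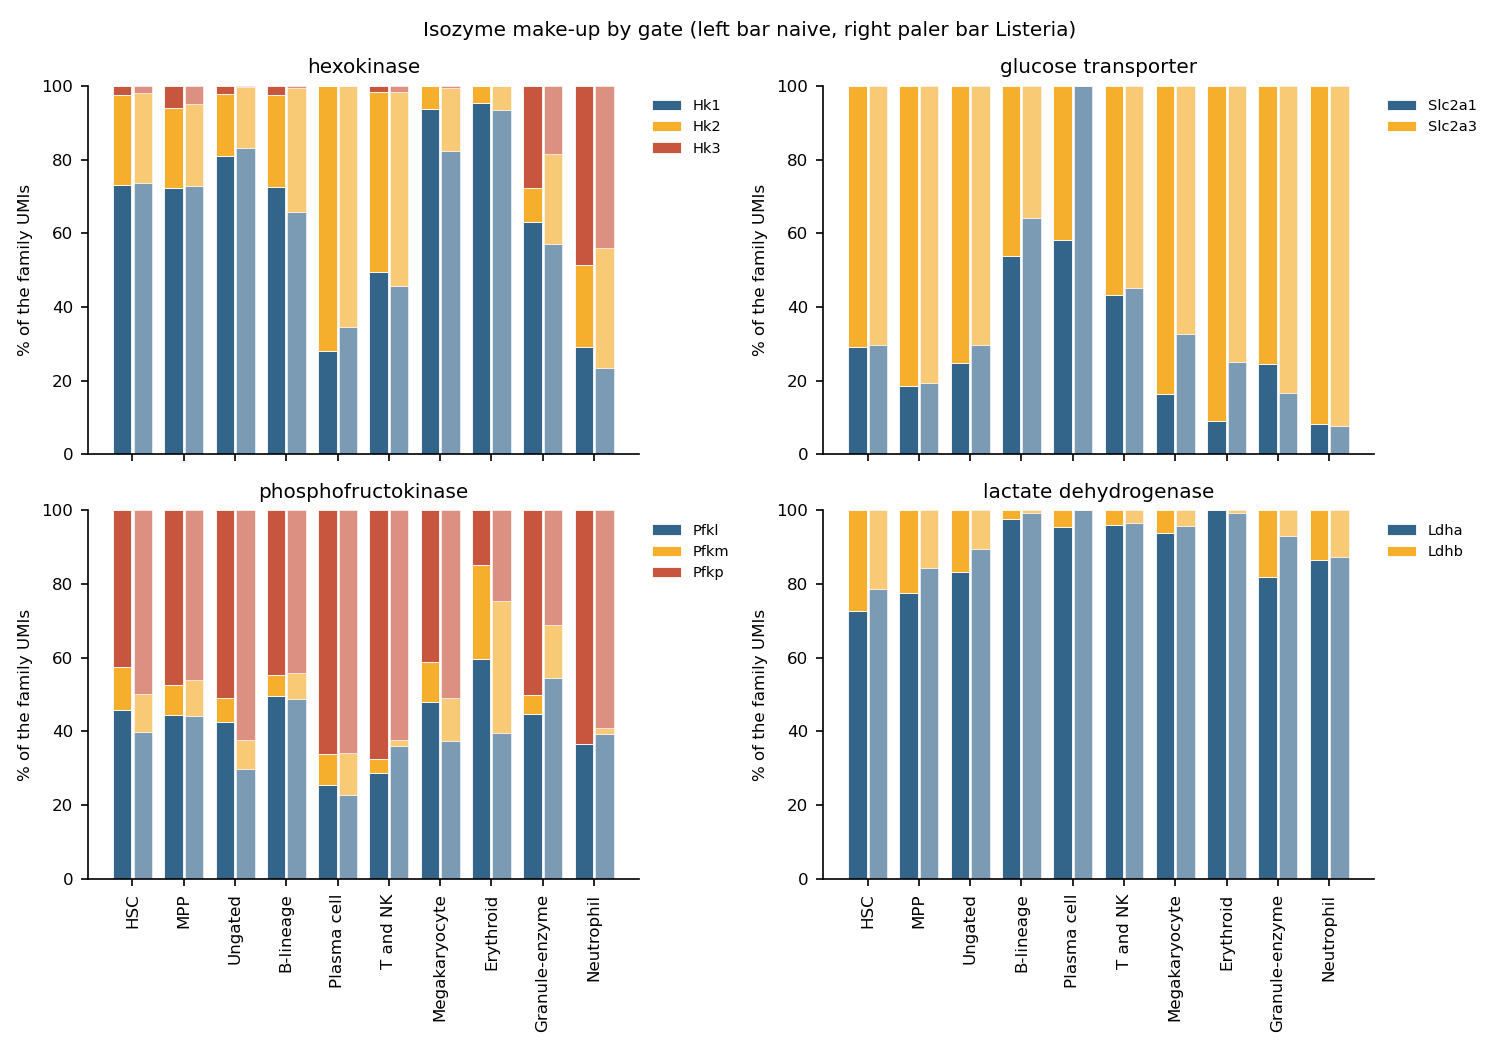
Share of each isozyme in the UMIs of its family by marker gate, in percent, for hexokinase, glucose transporter, phosphofructokinase and lactate dehydrogenase, with the naive library as the left and the Listeria library as the paler right bar. Ldhb shrinks from 27.2% in naive HSC-gated to 2.26% in naive B-lineage cells, and Hk3 makes up 48.5% of naive neutrophil hexokinase UMIs. The full Slc2a1 bar of the Listeria plasma cells rests on very few UMIs.

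In the HSC, MPP and ungated gates, dividing cells carried more Pgk1 and less Hk2 and Aldoa than resting cells, in each of 6 comparisons. A cell was called dividing with at least 5 UMIs of 20 mitosis genes, and resting with 0 of these and at most 2 of 15 replication gene UMIs. The HSC gate held 299 resting and 114 dividing naive cells and 269 and 187 Listeria cells. Dividing cells were deeper, with a median of 9039.5 against 5982 UMIs in naive and 9415 against 5769 in Listeria, and the part of depth in these differences was not tested beyond the thinned values given below. Over all kept cells the 10 genes summed to 1281 CPM in dividing and 1029 in resting naive cells, a log2 ratio of 0.317 (0.276 to 0.359), and to 1398 and 1209 in Listeria cells (0.21, 0.16 to 0.25). Those pooled groups differed in cell type: B-lineage cells were 1142 of 1837 dividing and 32 of 1012 resting naive cells. In the Listeria library they were 345 of 1229 and 17 of 697. In the HSC gate the summed ratio was 0.21 in naive and -0.01 in Listeria cells. Of the 6 ratios in the HSC, MPP and ungated gates 5 were above 0, 3 had intervals above 0 and none passed the limit.

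Pgk1 was the member with the most uniform excess in dividing cells. It stood at 173.6 CPM in dividing and 87.8 in resting naive HSC-gated cells, a log2 ratio of 0.98 (0.68 to 1.29), and at 143.7 and 107.5 in Listeria ones, 0.42 (0.14 to 0.70). In the MPP gate it was 148.9 against 116.6 and 185.4 against 115.7, and in ungated cells 121 against 86.9 and 165.9 against 119.2. All 6 ratios passed the 0.32 limit and 5 of 6 intervals lay above 0. Across cells of these 3 gates with 0, 1 to 4, 5 to 19, 20 to 49 and 50 or more mitosis UMIs, naive Pgk1 was 108, 115, 146, 174 and 169 CPM and Listeria Pgk1 119, 140, 164, 180.4 and 186.

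Ldha followed in 5 of 6 comparisons. It was 273.9 against 199.9 CPM in naive HSC-gated cells (0.45, 0.23 to 0.68) and 254.3 against 213.8 in Listeria ones (0.25, 0.05 to 0.45), and the exception was naive ungated cells (-0.09). Gpi1, Tpi1 and Eno1 were above 0 in 6 of 6 comparisons, but passed the limit in only 1, 2 and 2 of them. Gpi1 in the naive HSC gate (0.39) came under the limit, at 0.26, when libraries were scaled by TMM or by median-ratio factors, which moved every log2 ratio of that comparison by -0.12, and its Ldha value came to 0.29 with looser gates.

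Hk2 was lower in dividing cells in 6 of 6 comparisons. It stood at 21.6 CPM in dividing and 48.0 in resting naive HSC-gated cells (-1.15, -1.86 to -0.50) and at 43.4 and 66.0 in Listeria ones (-0.60, -1.04 to -0.18). All 6 ratios passed the limit and 4 intervals lay below 0. The naive value came to 0.04 when dividing needed 10 mitosis UMIs and resting 0 replication UMIs, and the Listeria value to -0.11 when each cell was thinned to 2500 UMIs. The stricter division limits gave -2.02 in Listeria and thinning -1.29 in naive cells, so neither setting moved both libraries the same way.

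Aldoa was lower in dividing cells with all 6 intervals below 0. It was 120.1 against 162.9 CPM in naive HSC-gated cells (-0.44, -0.74 to -0.14) and 138.5 against 233.3 in Listeria ones (-0.75, -0.98 to -0.52). The MPP gate gave -0.31 and -0.49 and ungated cells -0.88 and -0.51. Along the mitosis classes above, Aldoa was 166, 156, 143, 59.8 and 71.6 CPM in naive and 221, 195, 162, 97.6 and 95.05 in Listeria cells. The naive HSC value came to -0.02 in thinned cells, whereas the Listeria one stayed between -1.70 and -0.60 over the alternatives tried. Aldoa and Pgk1, enzymes of the same pathway, thus ran in opposite directions. Pfkl was below 0 in 6 of 6 comparisons (-0.72 to -0.21) with 1 interval below 0, and Slc2a1 and Pgam1 took both signs.

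**Figure D3:**
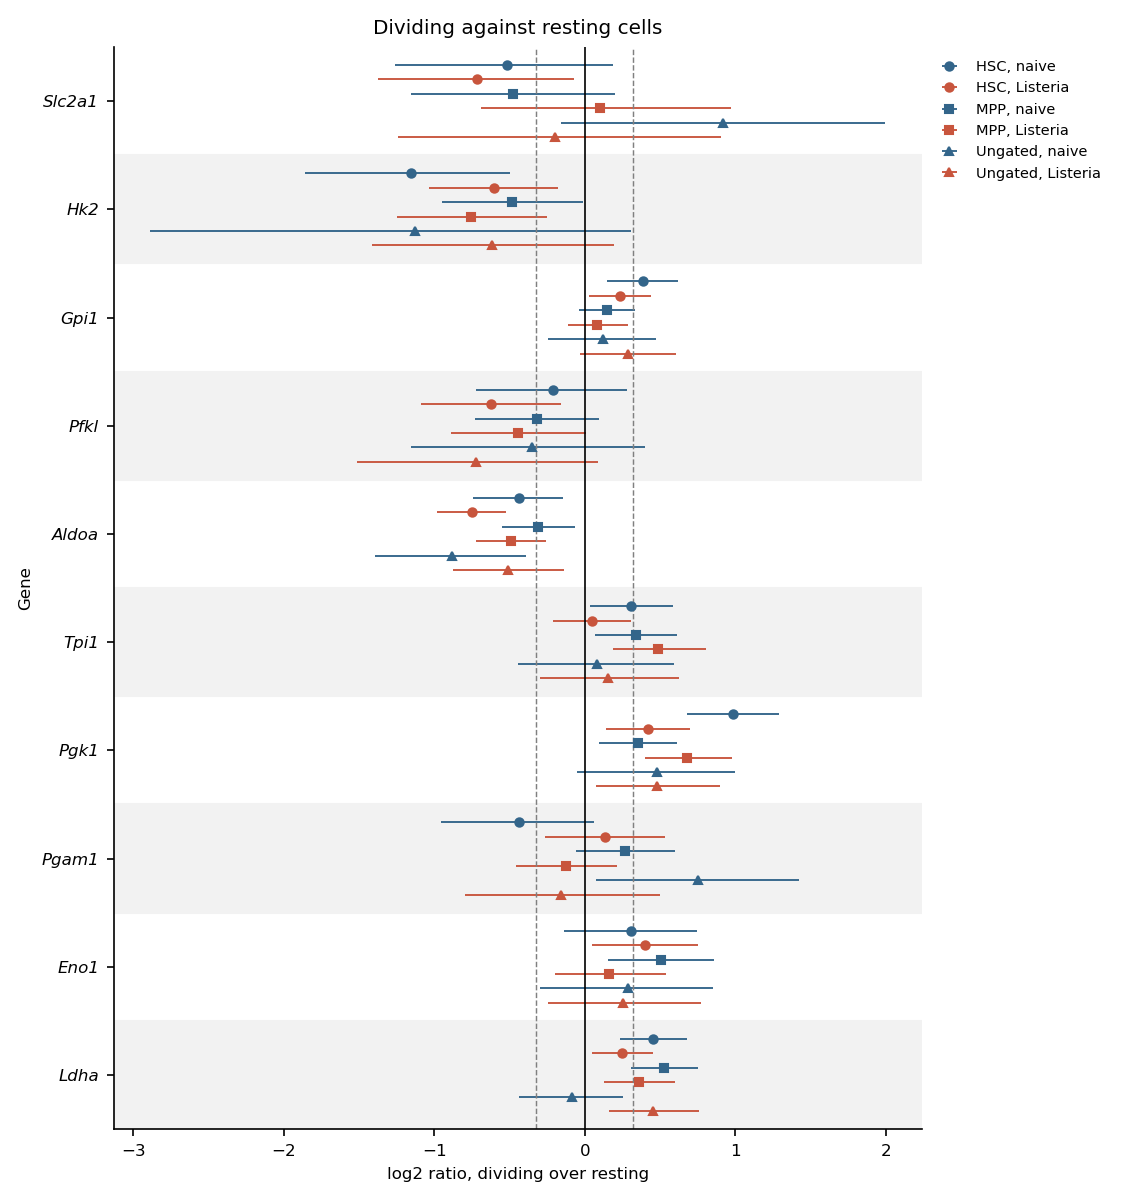
Log2 ratio of dividing over resting cells for each of the 10 genes, with bars for 95% counting intervals, circles for HSC, squares for MPP and triangles for ungated cells, and dashed lines at plus and minus 0.32. Pgk1 lies right of 0 and Hk2 and Aldoa left of 0 in all 6 comparisons.

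By the limit, 3 members were higher and 4 lower in dividing naive HSC-gated cells, beside 36.6% and 17.7% of all genes. In Listeria HSC-gated cells 2 were higher and 4 lower (29% and 23.6% of all genes). In the MPP gate 4 were higher and 2 lower in naive (24.8% and 14.9%) and 3 and 3 in Listeria cells (21.8% and 20.5%). Ungated cells gave 3 higher and 3 lower in naive (39.1% and 24.9%) and 2 and 3 in Listeria (30.5% and 23.8%). Of 16 tricarboxylic acid cycle genes, which oxidise pyruvate in mitochondria, 11 were higher and none lower in dividing naive HSC-gated cells and 8 and none in Listeria ones. Of 11 measured genes of the list of other hypoxia targets 2 were higher and 4 lower, and 1 and 2 in Listeria cells. Gapdh stood at 609 against 482 CPM in naive and 857.5 against 628 in Listeria cells, the same side as Pgk1.

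Between the libraries the 10 genes differed little in HSC-gated cells. Eno1 alone passed the 0.32 limit, at 76.8 CPM in Listeria and 58.7 in naive cells (0.39, 0.23 to 0.54), so 1 member was higher and none lower, beside 22.1% and 6.82% of all genes. Under TMM scaling Eno1 came to 0.30 and with stricter gates to 0.30, and then no member, or only Hk2 with stricter gates (0.35), passed. The members' median was 0.14 and that of all genes 0.11. Aldoa (157 to 188 CPM, 0.26) and Ldha (216 to 249, 0.20) were among the members with intervals above 0. So were Hk2 (48.7 to 57.8, 0.25) and Pgam1 (54.9 to 61.8, 0.17, 0.01 to 0.34), while Pfkl was lower (54.8 to 46.9, -0.23, -0.40 to -0.05). RNA outside cells, read from barcodes with 1 to 50 UMIs, held 129 CPM of Aldoa for naive and 215 for Listeria, a difference in the same direction. Its part was not tested beyond subtracting it, which is described with the other alternatives.

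In the MPP gate 3 members were higher and none lower in the Listeria library, beside 17.1% and 7.08% of all genes. Aldoa stood at 197.5 against 147.6 CPM (0.42, 0.34 to 0.50), Pgk1 at 156.4 against 121.5 (0.36) and Hk2 at 43.9 against 35.0 (0.32). The summed level was 0.23 log2 units higher there, 0.15 in the HSC gate and 0.03 in ungated cells. Whether the gates differ in this was not tested.

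Hk2 was higher in the Listeria library in all 7 gates with at least 50 cells in each library, and 6 of the 7 ratios had intervals above 0. The log2 ratio was 0.25 in HSC, 0.32 in MPP, 0.44 in ungated, 0.60 in B-lineage, 0.32 in T and NK (-0.35 to 0.98), 1.34 in megakaryocyte (0.53 to 2.21) and 0.81 in neutrophil cells (0.37 to 1.26). Neutrophil-gated Hk2 stood at 91.3 against 51.9 CPM and megakaryocyte-gated Hk2 at 27.9 against 11.1, the latter from 55 and 17 UMIs. Extracellular RNA held 29.9 CPM of Hk2 in the Listeria and 32.8 in the naive library, and its part in these ratios was not tested outside the HSC gate. There, subtracting it turned the Hk2 ratio to -0.08 with the amount estimated from all cells and left it at 0.25 with the amount estimated without 3 haemoglobin-rich naive cells. By division state, dividing MPP-gated cells gave -0.12 (-0.56 to 0.31). Ldha and Pgk1 were also above 0 in all 7 gates, by 0.01 to 0.30 and 0.10 to 0.36, on CPM scaling alone. Within division states of the HSC, MPP and ungated gates, 2 of 9 ratios were below 0 for each of these genes. Pgk1 in dividing HSC-gated cells was among them, at -0.27 (-0.54 to -0.004). In all kept cells Hk2 was at 44.1 against 29.9 CPM (0.56), and at 0.29 log2 units in HSC, MPP and ungated cells pooled. B-lineage cells, which are low in Hk2, were 1399 of 6375 naive and 399 of 4839 Listeria cells.

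Pfkl was the main exception. In ungated cells it stood at 32.5 CPM in the Listeria and 55.7 in the naive library (-0.77, -1.07 to -0.48), while MPP, B-lineage, T and NK and neutrophil cells gave values from -0.07 to 0.01. Megakaryocyte-gated cells gave -0.41 (-0.85 to 0.03). Extracellular RNA held 28.2 CPM of Pfkl for Listeria and 45.9 for naive, a difference in the same direction, and its part in the ungated cells was not tested. Of genes next to the members, Gapdh stood at 755 against 511 CPM in HSC-gated cells, Pfkfb3, which makes the activator of phosphofructokinase, at 47.1 against 28.6, and Ldhb at 67.2 against 81.0.

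**Figure D4:**
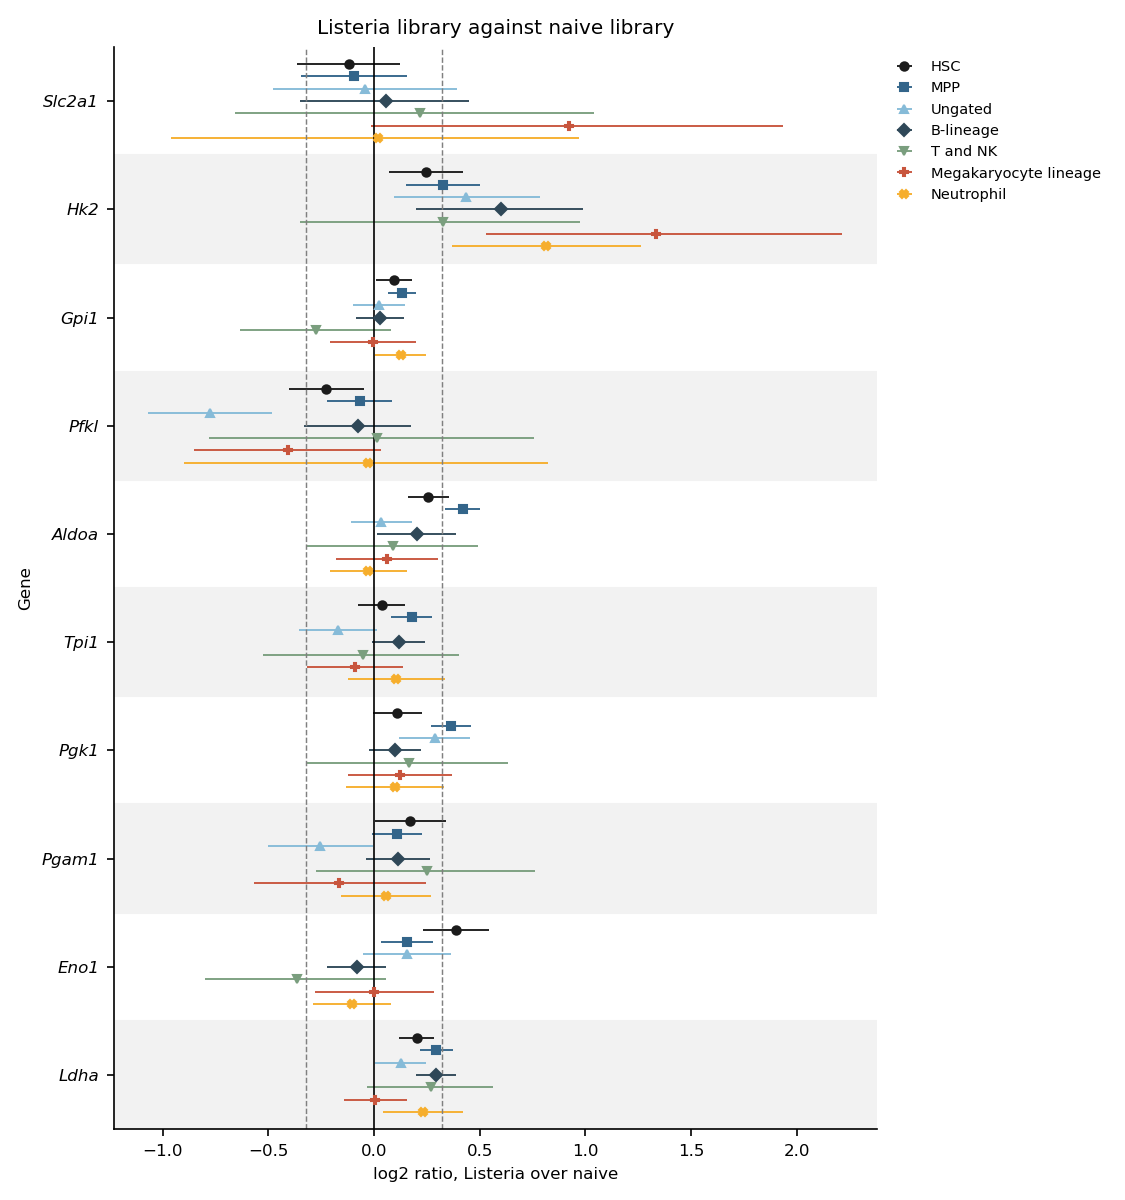
Log2 ratio of the Listeria over the naive library for each of the 10 genes in 7 marker gates, with bars for 95% counting intervals and dashed lines at plus and minus 0.32. Hk2 lies right of 0 in all 7 gates, reaching 1.34 in megakaryocyte-gated cells, and Pfkl in ungated cells lies at -0.77.

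Within the Listeria library several members differed with the level of Fos, an immediate early gene whose transcript appears quickly after stimulation. This split was chosen after the values were seen. Non-dividing HSC-gated cells were thinned to 2500 UMIs and divided by Fos UMIs, giving 703, 334 and 261 naive and 681, 170 and 336 Listeria cells with 0, 1 to 2 and 3 or more, at nearly equal median depths (6551 to 6649 and 6312.5 to 6610 UMIs). In Listeria cells with 3 or more Fos UMIs, Pfkl stood at 69.1 CPM against 35.2 in cells with none (0.97, 0.65 to 1.30) and Tpi1 at 178 against 91.4 (0.96, 0.76 to 1.16). Ldha was at 310 against 209 and Aldoa at 241 against 173. Pgk1 did not follow, at 110 against 126 (-0.19, -0.41 to 0.02), nor did Slc2a1 (-0.20).

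By the limit 7 members were higher and none lower in these Listeria cells, beside 41.7% and 25.3% of all genes, and 2 higher and 1 lower in naive cells, beside 30.1% and 19%, so the naive count was no larger than the background. The naive members past it were Hk2 (71.9 against 46.5 CPM, 0.63), Tpi1 (144 against 113, 0.36) and, on the lower side, Slc2a1 (-0.43). Summed, the 10 genes stood at 1415 against 1044 CPM in Listeria and 1132 against 1023 in naive cells. The same split of MPP-gated cells gave Pfkl at 1.36, Tpi1 at 0.81 and Hk2 at 0.78 log2 units in Listeria cells. Listeria Pgk1 went the other way there (-0.21, -0.39 to -0.04). Naive MPP-gated cells gave Hk2 at 1.21, Tpi1 at 0.50 and Eno1 at 0.41. By the limit 6 members were higher in Listeria MPP-gated cells, beside 39.8% of all genes, and 3 in naive ones, beside 27.5%. None was lower in either library, beside 25.1% and 17.6% of all genes. With dividing cells included, the summed Listeria over naive ratio was 0.02 among HSC-gated cells with no Fos UMI and 0.30 among those with 3 or more. The difference between the libraries in this was not tested.

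**Figure D5:**
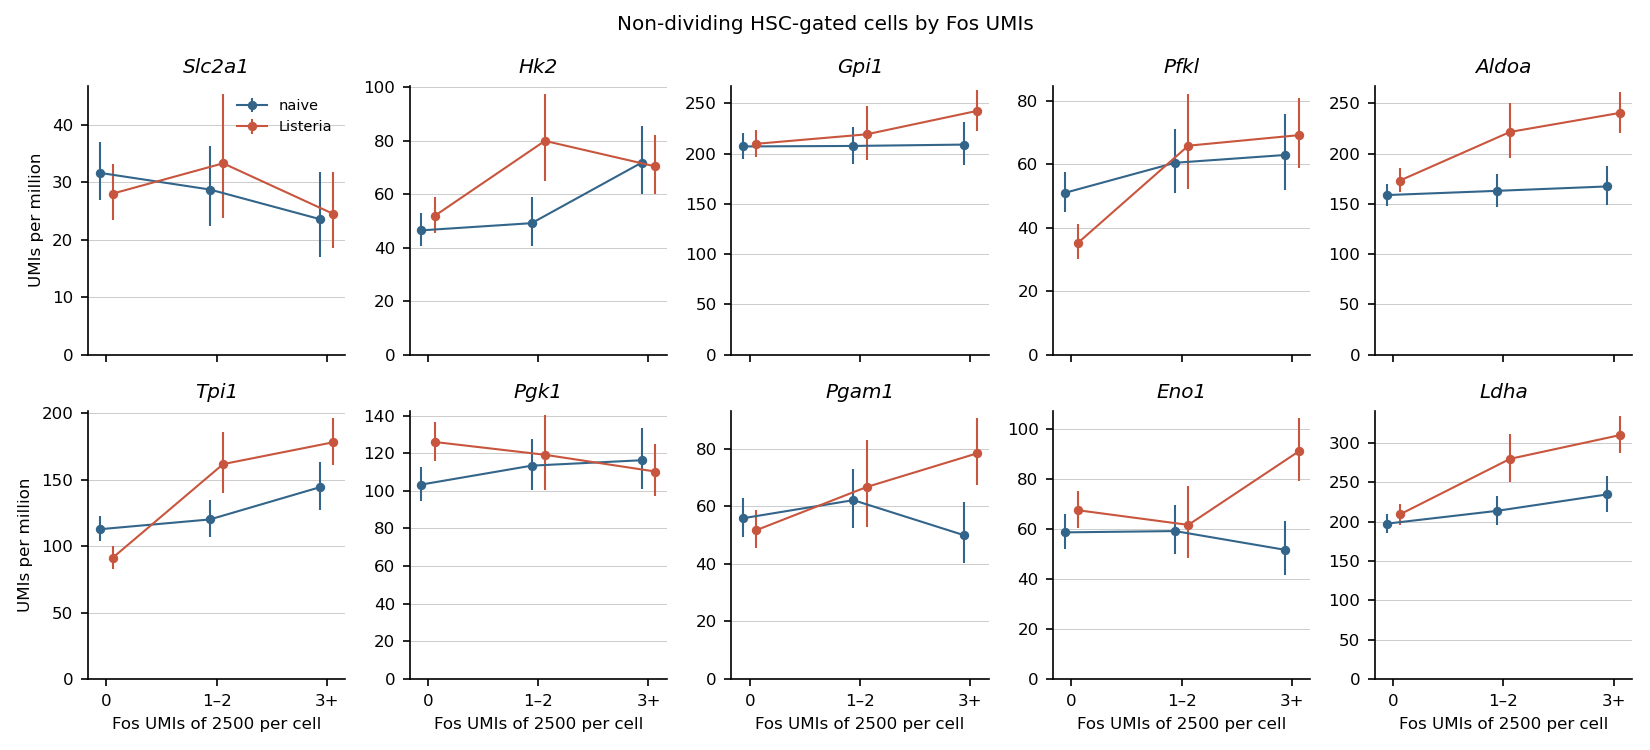
Level of each of the 10 genes in non-dividing HSC-gated cells with 0, 1 to 2 and 3 or more Fos UMIs after thinning to 2500 UMIs, in CPM with 95% counting intervals, blue for naive and red for Listeria. Listeria Pfkl runs from 35.2 to 69.1 and Tpi1 from 91.4 to 178, while Listeria Pgk1 stands at 126 and 110 at the ends.

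Over 30 groups of gate, division state and library, the summed level of the 10 genes was set beside each of 2869 other genes by Pearson's r on log2(CPM + 1), as a description of groups that share libraries. The nearest were Aprt (0.90), an adenine salvage enzyme, P4hb (0.87), a protein disulphide isomerase, Tmed3 (0.85), 1110008F13Rik (0.83), Tkt (0.83), 1810037I17Rik (0.82), Spcs2 (0.81), a signal peptidase subunit, and Tecr (0.81), an enzyme of fatty acid elongation. The summed level itself was highest in the dividing naive neutrophil-gated cells and lowest in naive B-lineage cells between the division states. Without that group r was 0.78 for Aprt, 0.79 for P4hb and 0.68 for Tkt. Among the members themselves the nearest pairs were Tpi1 with Pgk1 (0.78) and Gpi1 with Pgam1 (0.73). Without the neutrophil group r was 0.74 for Tpi1 with Pgk1 and 0.43 for Gpi1 with Pgam1.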

How the data were processed

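Raw UMI counts per gene and barcode were deposited by the authors for both libraries, unfiltered. They came from Cell Ranger 3.0.2 on mm10, per the submitters' processing notes, and a 10x 3′ kit, per the labels' protocols. Kept cells held 78.6% of 64619150 naive and 89.4% of 43895966 Listeria UMIs. Doublets were not called and can remain. Counts were summed per gate and division state and divided by the sum (CPM). Levels have exact Poisson intervals, shares exact binomial ones and log2 ratios intervals from the binomial split of UMIs. Lineage gates needed at least 3 genes and 10 UMIs of a marker list (4 and 30 for plasma cells and neutrophils). Ratios needed 50 cells in each group. The calling of changed genes was tested on simulated counts that held counting error only, with planted changes well past the limit. Variation between cells or libraries was not simulated. All 10 members are named, with up to 4 genes per pathway list, those with the most UMIs, and the 8 genes nearest to the summed level; other genes named were chosen after their values were seen. Members, lists and gates were chosen with earlier results of these data known. Positions are from GENCODE vM21 and promoters from RefSeq. Alternatives used Python 3.11.15, edgeR 4.0.16 and DESeq2 1.42.0, the last 2 for scaling factors only.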

Additional observations from a re-analysis of the deposited data

Results flagged for a closer look

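In 2 flagged cases the counting intervals of the same contrast lay on opposite sides of 0 in different groups, and neither difference was tested. Pgam1 in the Listeria over the naive library was 0.17 log2 units (0.01 to 0.34) in HSC-gated cells and -0.25 (-0.50 to -0.00) in ungated cells. Ldha in dividing cells over cells between the division states was 0.90 (0.68 to 1.12) in naive B-lineage cells and -0.23 (-0.43 to -0.03) in Listeria megakaryocyte-gated cells. Naive B-lineage Ldha stood at 264 CPM in 1142 dividing and 142 in 225 intermediate cells, and Listeria megakaryocyte-gated Ldha at 407 in 83 and 478 in 72. These 2 are not all such cases. Among dividing cells, Pgk1 in the Listeria over the naive library was -0.27 (-0.54 to -0.004) in the HSC gate. It was 0.32 (0.13 to 0.51) in the MPP gate, and that difference was not tested either.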

How the results depend on the processing

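Of 60 single-gene ratios, 44 had 1 sign under all alternatives, and of the 32 past the 0.32 log2 limit 31 did. The exception was Hk2, dividing over resting, in the naive HSC gate, at 0.042 with stricter division states. Summed over the 10 genes, Listeria over naive in all cells (0.16 log2 units) was 0.13 with at most 5% mitochondrial UMIs, 0.19 without the 5% deepest cells, 0.18 as a mean over cells and 0.18 thinned, 0.11 with TMM and 0.11 with median-ratio factors, and 0.14 with free RNA subtracted. In the HSC gate it was 0.054 with TMM, 0.081 with median-ratio factors, 0.25 with free RNA subtracted, and 0.30 and 0.018 in cells with 3 or more and with 0 Fos UMIs. Dividing over resting in naive cells was 0.14 without the deepest cells, 0.17 as a mean over cells, 0.19 thinned, 0.20 on the reduced total, 0.45 with TMM, 0.45 with median-ratio factors, 0.61 with free RNA subtracted and 0.16 in stem and progenitor gates. In Listeria cells it was 0.055, 0.076, 0.10, 0.15, 0.29, 0.30 and 0.068 under the same settings without the subtraction, and 0.10 with stricter states.

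Members higher in dividing naive HSC-gated cells numbered 3, but 5 with at most 5% mitochondrial UMIs, 5 with stricter states, 5 with free RNA subtracted and 1 at a 1.5-fold limit. In Listeria ones they numbered 2, but 1 with at most 5% mitochondrial UMIs, 1 with looser gates, 4 thinned and 0 at 1.5-fold. Members past the limit between libraries in the HSC gate numbered 1, but 2 thinned, 0 with TMM, 5 with free RNA subtracted and 0 at 1.5-fold. The subtraction took 52.8% of naive and 1.37% of Listeria UMIs, from haemoglobin in HSC-gated and B-lineage cells. In the naive library 3 of 2811 cells held 14175 of 14457 haemoglobin UMIs, and without them, an amount chosen after seeing the data, it was 1.03%. No other change has a tested cause. No paired analysis was possible because each condition has 1 library. Levels under 10 CPM rest on few UMIs in the smaller gates.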
